A study of Mus musculus with 8 samples.

Results

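Chemokines are small secreted proteins that draw leukocytes along a gradient by binding G protein-coupled receptors on the responding cell. Activated T cells secrete several of them, and helper T cell subsets differ in which ones they make. *Ccl20* is a ligand gene that Th17 cells are known for, and its product attracts cells that carry CCR6. *Ccl3*, *Ccl4* and *Ccl5* encode inflammatory chemokines of the CC class, and *Xcl1* encodes lymphotactin, which draws cross-presenting dendritic cells through XCR1. The 8 genes described here, *Ccl20*, *Ccl3*, *Ccl4*, *Ccl5*, *Ccl1*, *Ccl22*, *Cxcl10* and *Xcl1*, were picked by symbol as the chemokine ligands that activated T cells can produce. They are 8 of the 13704 genes listed in either RNA-seq library, or not listed at all, which was taken as 0 reads. Reads were found for 7 of them, and 6 had the 10 reads over both libraries that were needed for a test.

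RNA-seq was done on Th17 cells of C57BL/6 background. Naive CD4+ T cells, which the study's methods gate as CD25-, CD62L high and CD44 low in a sort of spleen and lymph node cells, were stimulated with plate-bound anti-CD3 and anti-CD28 and cultured for 3 days with 0.5 ng/ml TGFb and 20 ng/ml IL-6 and then re-stimulated with anti-CD3. One culture came from WT mice and the other from TRIM28fl/flxCD4cre mice (KO). In the KO mice a Cre recombinase driven by *Cd4* sequences deletes *Trim28* while T cells develop in the thymus, and so before the culture began. TRIM28 is widely known as a chromatin co-repressor, and the paper proposes that it acts mainly as a co-activator in Th17 cells. There was 1 library per genotype, so no difference given here has a replicate check. All tests compare the libraries, not the genotypes, and all intervals cover counting error only.

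The total count was 6.65 M reads (M, 1000000) in WT, spread over 13078 genes, and 6.19 M reads in KO, over 12754 genes. At this depth 3 reads, the smallest level taken as shown, correspond to 0.451 CPM (reads per 1000000 reads of the library) in WT and 0.485 CPM in KO. *Trim28* itself had 4485 reads in WT and 180 in KO, lower in the library labelled as the knockout. All 9 T cell markers had reads, with a summed level of 5769 CPM in WT and 5313 CPM in KO, and none of them was called. Of 8 Th17 markers, *Il22* was at 0 in both libraries and the summed level was 1671 CPM in WT and 528 CPM in KO, with *Il17a*, *Il17f* and *Il21* called lower. In a bulk sample, fewer cells of a type and less RNA per cell cannot be told apart.

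All members are compact genes of 3 or 4 exons. In RefSeq coordinates of GRCm38, the assembly behind mm10, *Ccl20* lies on chromosome 1 from 83116766 to 83119167 on the plus strand with 4 exons, and *Xcl1* on the same chromosome from 164931644 to 164935522 on the minus strand with 3 exons. *Ccl3* (83647843 to 83649378, minus strand), *Ccl4* (83662584 to 83664683, plus strand) and *Ccl5* (83525778 to 83530518, minus strand) share a cluster on chromosome 11, each with 3 exons, and *Ccl1* lies at 82176666 to 82179812 of the same chromosome on the minus strand. *Cxcl10* occupies chromosome 5 from 92346638 to 92348889 on the minus strand with 4 exons, and *Ccl22* chromosome 8 from 94745684 to 94751388 on the plus strand with 3 exons. A predicted RefSeq transcript of *Ccl4* covers 57 of the 790 exon bases of *Ccl3* on the other strand. Whether reads were counted by strand is not given in the sources used here, so reads from those bases cannot be told apart.

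The 250 bases before the RefSeq start of the 3 members that were called different between the libraries are shown, because these are the stretches in which the sequences of a ligand that was lower and of ligands that were higher can be set side by side. They are written 5' to 3' on the gene's own strand, from RefSeq's promoter table for GRCm38.p6, and capitals mark each match, on either strand, to 8 short motifs: TATAA (TATA box), TGANTCA (AP-1), GGGANTTTC (NF-kB), TGGAAA (NFAT), AGGTCA (the core of a ROR element), TTCNNNGAA (STAT), GAAANNGAA (IRF) and TGACGTCA (CRE).
Ccl20, chr1:83116516-83116765, plus strand: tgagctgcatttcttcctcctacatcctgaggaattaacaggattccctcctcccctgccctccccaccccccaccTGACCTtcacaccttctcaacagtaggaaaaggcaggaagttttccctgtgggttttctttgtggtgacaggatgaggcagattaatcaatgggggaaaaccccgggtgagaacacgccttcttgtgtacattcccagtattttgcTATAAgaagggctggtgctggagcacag
Xcl1, chr1:164935523-164935772, minus strand: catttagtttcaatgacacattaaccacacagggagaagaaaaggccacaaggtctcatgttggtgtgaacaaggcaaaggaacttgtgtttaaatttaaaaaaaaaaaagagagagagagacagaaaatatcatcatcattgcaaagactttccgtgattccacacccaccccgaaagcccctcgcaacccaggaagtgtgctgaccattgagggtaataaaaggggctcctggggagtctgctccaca
Ccl3, chr11:83649379-83649628, minus strand: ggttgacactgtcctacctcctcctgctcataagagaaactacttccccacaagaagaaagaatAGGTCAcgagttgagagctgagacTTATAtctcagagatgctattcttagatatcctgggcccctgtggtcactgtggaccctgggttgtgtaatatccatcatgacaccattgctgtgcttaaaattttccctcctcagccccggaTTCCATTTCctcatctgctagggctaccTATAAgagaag
In *Ccl20*, TATAA stood 28 to 24 bases before the start, and AGGTCA was found on the minus strand 174 to 169 bases before it. In *Ccl3*, TATAA was found 11 to 7 bases before the start and, on the other strand, at 162 to 158 bases, AGGTCA stood at 186 to 181 bases, and GAAANNGAA on the other strand at 39 to 31 bases. The *Xcl1* window held none of the 8 motifs.

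The promoter table held 6 of the 8 members, all but *Ccl4* and *Ccl5*. AGGTCA was found in 3 of these 6 windows (*Ccl20*, *Ccl3* and *Ccl22*) and in 14.0% of all 32851 promoter windows of the table. GAAANNGAA was found in 3 (*Ccl3*, *Ccl1* and *Cxcl10*), against 7.13% of all windows. TGGAAA was found in 2 (*Ccl1* and *Cxcl10*), against 18.6%, and TATAA in 2 (*Ccl20* and *Ccl3*), against 22.8%. TGANTCA was found in 1, *Cxcl10*, against 6.75%. In *Cxcl10* the GAAANNGAA match at 213 to 205 bases overlapped the TGGAAA match at 215 to 210 bases. GGGANTTTC, TTCNNNGAA and TGACGTCA were in none of the 6 windows, and in 0.941%, 7.02% and 1.55% of all windows. A match describes letters only, and a window without one says nothing about the factor.

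*Ccl20* was the 1 member that was called lower in the KO library. It had 12 reads in WT (1.80 CPM) and 0 in KO. All its reads were therefore in the WT library. The floor of 3 reads stands at 0.485 CPM in KO, and the exact Poisson 95% interval of the count of 0 reaches 0.596 CPM. With the WT count taken as it stands and KO set to that floor of 3 reads, *Ccl20* was at least 3.72-fold higher in WT. The exact 95% interval of the log2 fold change (KO/WT), which covers the counting error of both libraries, gives a weaker bound of -1.37, and the adjusted p was 0.00185 from the two-sided exact binomial test with Benjamini-Hochberg adjustment over the 10881 genes tested. No lower bound exists with 0 KO reads, and the call rests on 12 reads of a single library.

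*Xcl1* moved the other way. It had 9 reads in WT (1.35 CPM) and 36 in KO (5.82 CPM), a higher level in the KO library. The log2 fold change was 2.05 (exact 95% interval 1.02 to 3.34) with an adjusted p of 7.66e-05 from the exact binomial test, and 0.643% of all tested genes had a larger one. *Ccl3* had 57 reads in WT (8.57 CPM) and 115 in KO (18.6 CPM), also higher in KO. Its log2 fold change was 1.11 (0.65 to 1.60), with an adjusted p of 6.41e-06 from the exact binomial test. *Xcl1* and *Ccl3* were called higher.

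*Ccl4* and *Ccl5*, which lie in one cluster with *Ccl3*, were higher in the KO library by less than the 2-fold that a call required. *Ccl4* had 156 reads in WT (23.5 CPM) and 223 in KO (36.1 CPM), the highest level of any member in both libraries. Its log2 fold change was 0.62 (0.32 to 0.92), with an adjusted p of 0.000162 from the exact binomial test. *Ccl5* had 26 reads in WT (3.91 CPM) and 48 in KO (7.76 CPM), just below the 2-fold mark. Its log2 fold change was 0.98 (0.27 to 1.74) with an adjusted p of 0.0136 from the exact binomial test. Summed over *Ccl3*, *Ccl4* and *Ccl5*, there were 239 reads in WT and 386 in KO, a ratio of 1.74 after scaling to the library totals (exact 95% interval 1.47 to 2.05). Of the called members of the list, *Ccl3* alone lies in the chromosome 11 cluster.

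For the remaining members no direction could be given. *Cxcl10*, the interferon-induced ligand of CXCR3, had 29 reads in WT (4.36 CPM) and 18 in KO (2.91 CPM), and the log2 fold change of -0.57 (-1.52 to 0.31) did not pass the test (adjusted p = 0.303, exact binomial test). *Ccl22*, a ligand of CCR4, had 6 reads in WT and 3 in KO and was not tested. Its interval, -3.52 to 1.33, spans 0 widely. *Ccl1*, the ligand of CCR8, had 0 reads in both libraries, which allows up to 0.451 CPM in WT and 0.485 CPM in KO.

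**Figure D1:**
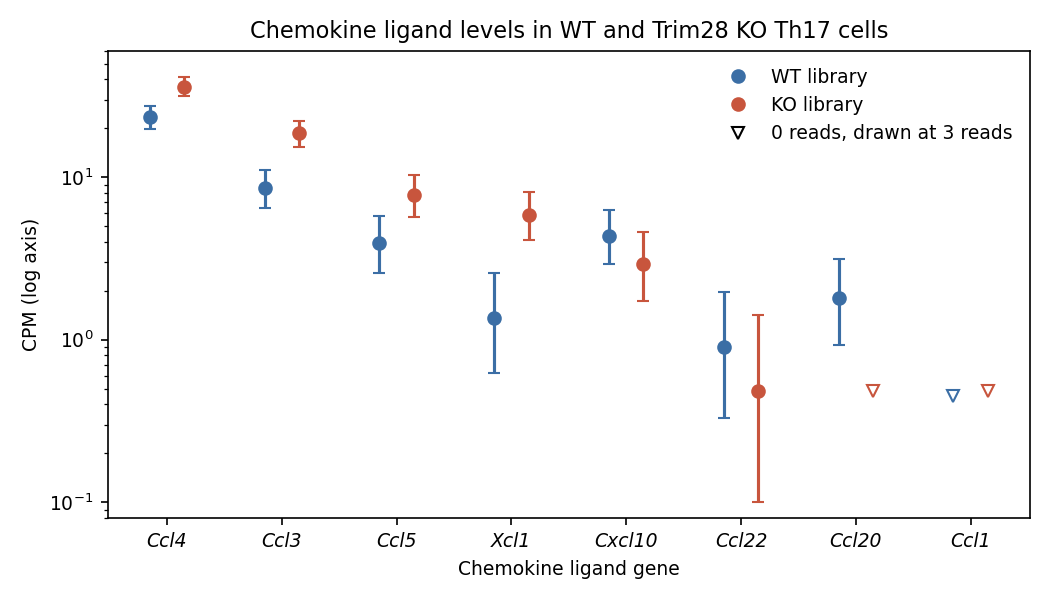
Levels of the 8 ligands in the WT and KO libraries, as CPM on a log axis with exact Poisson 95% intervals of the counts; an open triangle marks a count of 0, drawn at the level of 3 reads. *Ccl4* is highest in both libraries at 23.5 and 36.1 CPM, *Xcl1* is at 1.35 CPM in WT and 5.82 CPM in KO, and *Ccl20* is at 1.80 CPM in WT and at 0 in KO.

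Of the 6 tested members, 1 was called lower and 2 were called higher. Over all 10881 tested genes, 5.53% were called lower and 2.57% higher by the same rule of at least 2-fold and an adjusted p under 0.05. By fold alone the members' counts were again 1 and 2, against 7.94% lower and 3.75% higher over all tested genes. Counts this low carry wide sampling error, and 6 genes cannot show that the list differs from the rest. Among the 5315 tested genes with 12 to 379 reads, the range of the tested members, 8.97% were called lower and 4.27% higher. The 6 members had a median log2 fold change of 0.80, beside -0.02 over all tested genes. After the correction for transcript length it was 0.47, with the median of all genes moved by 0.02. Setting *Ccl20* to its bound could not move the uncorrected median, since *Ccl20* was still the lowest of the 6 members. None of the 3 calls held when cultures were assumed to vary with a coefficient of variation of 0.2.

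Ordered by log2 fold change, the members ran *Xcl1*, *Ccl3*, *Ccl5*, *Ccl4*, *Cxcl10*, *Ccl22* and *Ccl20*. Neighbours were compared by the ratio of their KO/WT ratios, as the conditional odds ratio of Fisher's exact test with its exact 95% interval. *Xcl1* over *Ccl3* was 1.98 (0.859 to 4.99), *Ccl3* over *Ccl5* 1.09 (0.588 to 2.01) and *Ccl5* over *Ccl4* 1.29 (0.748 to 2.27), so these neighbours did not differ beyond counting error. *Ccl4* over *Cxcl10* was 2.30 (1.19 to 4.56), the only neighbouring pair whose interval left out 1. Of all 21 pairs of the 7 members with reads, 11 had an interval that left out 1. Most of these 11 held *Ccl20* or *Cxcl10*. The pairs share genes and so are not independent, and the intervals were not adjusted for the number of pairs. Further apart in the order, *Xcl1* over *Ccl4* was 2.79 (1.27 to 6.78).

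**Figure D2:**
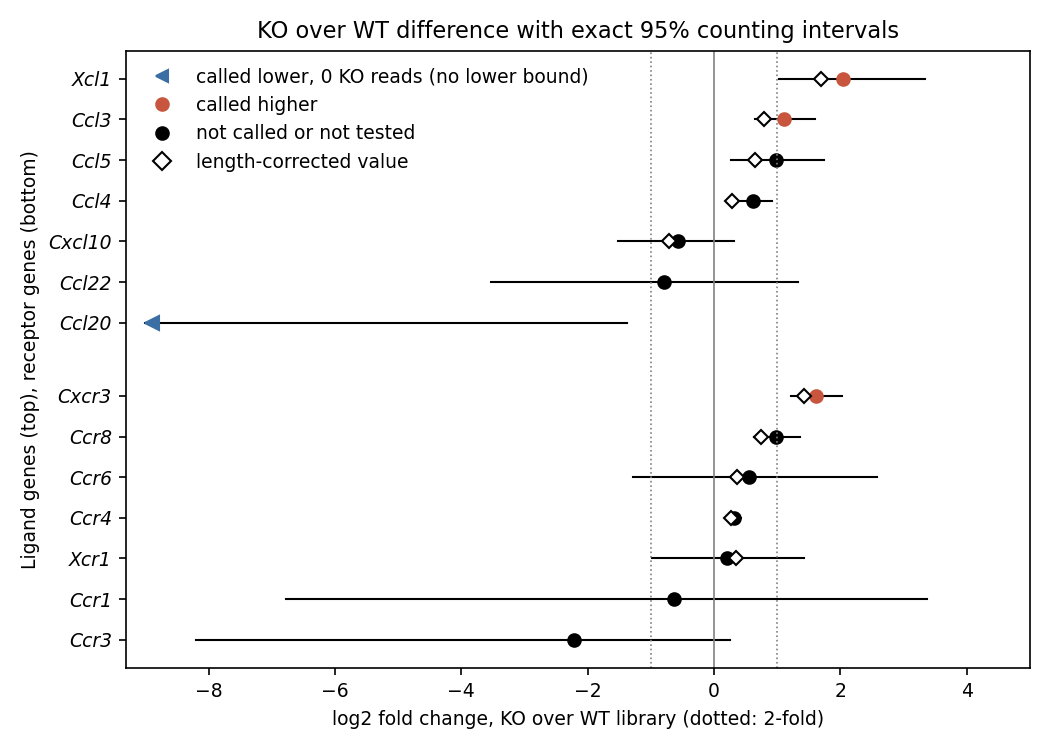
Log2 fold change (KO over WT) of the 7 ligands with reads and of 7 receptors with reads, with exact 95% counting intervals; dotted lines mark 2-fold and open diamonds the value after a correction for transcript length. *Xcl1* (2.05), *Ccl3* (1.11) and the receptor *Cxcr3* (1.61) were called higher, and *Ccl20*, drawn as an arrow because it has no lower bound, was called lower with its upper bound at -1.37.

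Levels of different genes were compared as RPKM, CPM divided by the kilobases of the longest GENCODE transcript. In WT, *Ccl4* (35.5 RPKM) was followed by *Ccl3* (11.2 RPKM), *Ccl5* (5.85 RPKM), *Xcl1* (2.59 RPKM), *Cxcl10* (1.96 RPKM), *Ccl20* (1.27 RPKM) and *Ccl22* (0.407 RPKM). In KO, *Ccl4* (54.6 RPKM) was followed by *Ccl3* (24.3 RPKM), *Ccl5* (11.6 RPKM), *Xcl1* (11.1 RPKM), *Cxcl10* (1.31 RPKM) and *Ccl22* (0.219 RPKM). *Ccl4* was above *Ccl3* beyond their Poisson intervals in both libraries, while *Ccl5* and *Xcl1* overlapped in both. *Cxcl10* was below *Xcl1* beyond counting error in KO but not in WT. With the longest curated RefSeq transcript in place of the GENCODE one, *Cxcl10* was at 3.96 RPKM in WT and so above *Xcl1*.

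The 8 members together had 295 reads in WT (44.4 CPM) and 443 in KO (71.6 CPM), a ratio of 1.61 (1.39 to 1.88). With 30 further ligand genes of the chemokine family, of which 22 had no read in either library, all ligands had 307 reads in WT and 461 in KO. Of the further ligands *Ccl25* alone had enough reads to be tested, with 5 and 6 reads, and it was not called. The further ligands made up 3.91% of the ligand reads in WT and 3.90% in KO. *Ccl4* gave 50.8% of them in WT (Clopper-Pearson 95% interval 45.1 to 56.5%) and 48.4% in KO (43.7 to 53.0%). *Xcl1* went from 2.93% (1.35 to 5.49%) to 7.81% (5.53 to 10.6%), and *Cxcl10* from 9.45% (6.42 to 13.3%) to 3.90% (2.33 to 6.10%), so that for both the intervals of the libraries did not overlap. A share also depends on the reads of the other ligands, which were more in KO, and the interval of the log2 fold change of *Cxcl10* itself spans 0. *Ccl20* gave 3.91% (2.04 to 6.73%) of the ligand reads in WT and 0 of 461 in KO, which allows a share of up to 0.651% at 3 reads (Clopper-Pearson upper limit 0.797%).

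**Figure D3:**
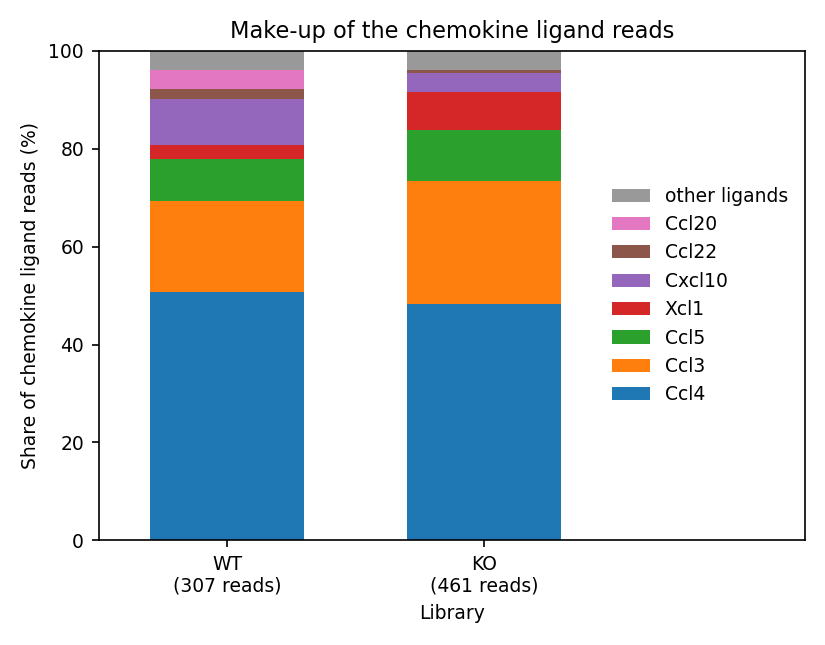
Share of all chemokine ligand reads (percent, stacked) that each ligand gave in the WT library (307 reads) and in the KO library (461 reads). *Ccl4* gives 50.8% and 48.4%, *Xcl1* 2.93% and 7.81%, *Cxcl10* 9.45% and 3.90%, and *Ccl20* 3.91% and 0.

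Receptors of these ligands mark the cells that can answer them, and Th17 cells carry some of them themselves. Of 9 receptor genes, *Ackr2*, a decoy receptor, had 0 reads, and 6 were tested. Of the 6 tested, 1 was called higher and none lower, against 2.57% and 5.53% over all tested genes. *Cxcr3*, the receptor of CXCL10, had 69 reads in WT and 197 in KO, a log2 fold change of 1.61 (1.22 to 2.04) and an adjusted p of 2.10e-16 from the exact binomial test. *Ccr8*, the receptor of CCL1, had 99 and 183 reads, and its log2 fold change of 0.99 (0.63 to 1.36) was under 2-fold. It was called with the TMM factors and with the DESeq2 size factors, where it was 1.01. *Ccr4*, the receptor of CCL22, had 1426 and 1662 reads. *Ccr6*, the receptor of CCL20, had 5 and 7 reads, too few to place its log2 fold change of 0.55 (-1.28 to 2.59) on either side of 0. *Xcr1* had 13 and 14 reads, *Ccr3* 7 and 1 and *Ccr1* 2 and 1, and *Ccr3* and *Ccr1* were not tested.

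Chemokine genes are switched on by T cell receptor signals along with other early genes. Of 22 such activation response genes, 20 were tested, with a median of -0.12. Of these, 1 was called lower and none higher, against 5.53% and 2.57% over all tested genes. The gene called lower was *Egr3*, an early transcription factor, with 350 reads in WT and 156 in KO. With the correction for transcript length its log2 fold change of -0.99 was under 2-fold. *Egr3* also lost its call when cultures were taken to vary by 0.2. *Il2* had 22 and 16 reads, *Tnf* 28 and 29 and *Ifng* 0 in both, and neither *Il2* nor *Tnf* was called. Their log2 fold changes were -0.34 and 0.15.

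Of 28 genes for transcription factors known to act on chemokine genes or in Th17 cells, 24 were tested, with a median of -0.02. Of these, 5 were called lower and 1 higher, against 5.53% and 2.57% over all tested genes. Those called lower included *Rora* (258 and 45 reads), which encodes a nuclear receptor that acts in Th17 cells, *Ahr* (816 and 185), *Nfatc2* (88 and 32) and *Rel* (193 and 85), and the 1 higher was *Fosb*, an AP-1 subunit, with 15 and 31. Under the length correction *Nfatc2* (-0.99) and *Rel* (-0.69) were no longer 2-fold lower, nor was *Rel* under the GC correction (-0.95). *Fosb* was no longer 2-fold higher with 5 added to each count (0.95). It also lost its call when the adjusted p had to be under 0.001. When cultures were taken to vary by 0.2, *Nfatc2*, *Rel* and *Fosb* lost their calls. *Rora* and *Ahr* kept theirs at 0.2 but lost them at 0.4. *Tbx21*, the T-bet gene, had 62 and 79 reads, and *Klf13*, which encodes a factor known to act on the *Ccl5* promoter, had 3091 and 2792, and neither was called.

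*Cxcl10* is also an interferon target. Of 20 interferon response genes, 13 were tested, with a median of 0.25. Of these, 3 were called higher and none lower, against 2.57% and 5.53% over all tested genes. The 3 were *Usp18* (8 and 111 reads), *Ifit1* (4 and 16) and *Cmpk2* (2 and 12, in WT below the floor of 3 reads). *Ifit1* and *Cmpk2* lost the call when cultures were taken to vary by 0.2, and when the adjusted p had to be under 0.001. *Usp18* kept its call under both settings, but lost it when cultures were taken to vary by 0.4. *Cxcl10* had 29 and 18 reads, with an interval of its log2 fold change (-1.52 to 0.31) that spans 0.

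Genes of other cell types that can make these ligands were counted beside them. Of 15 macrophage and dendritic cell markers, 9 were at 0 in both libraries, among them *Adgre1*, *Csf1r*, *Lyz2* and *C1qa*, and the summed level was 4.81 CPM in WT and 6.47 CPM in KO. Of 8 CD8 T and NK cell markers, *Ncr1*, *Klrb1c* and *Eomes* were at 0, and the summed level was 20.6 CPM in WT and 24.7 CPM in KO, with 1 of 4 tested called higher. That gene was *Prf1*, which encodes perforin, with 22 and 48 reads. *Cd8b1*, the CD8 beta chain gene, differed the other way, with 52 and 27 reads. Its log2 fold change was -0.83 (-1.57 to -0.14), and it was called lower under the length correction (-1.04). *Klrd1* had 58 and 70 reads, *Gzma* 4 and 6 and *Cd8a* 1 and 2. The cells were sorted as naive CD4+ cells, and no purity of the sort is given in the sources used here. All 7 granulocyte and mast cell markers were at 0. The 6 B cell markers summed to 14.1 CPM in WT and 7.60 CPM in KO, with 1 of 4 tested, *Cd79b*, called lower at 15 and 2 reads. Over all tested genes, 5.53% were called lower and 2.57% higher. The part of these markers' cells in the differences between the ligands was not tested.

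Within 250 kb of a member, 34 other genes had reads and 18 were tested, with a median of -0.14. Of the 18 tested, 1 was called lower and 1 higher, against 5.53% and 2.57% over all tested genes. *Daw1*, which starts 43.0 kb from *Ccl20*, was the only tested neighbour of that gene. It was called lower, with 10 reads in WT and 0 in KO (adjusted p = 0.00627, exact binomial test). These 10 reads just met the minimum for a test, and all came from the WT library. The call of *Daw1* was lost when cultures were taken to vary by 0.2, and when the adjusted p had to be under 0.001. *Ccdc102a*, near *Ccl22*, had 28 and 93 reads and was called higher. Around the chromosome 11 cluster, *Taf15* had 948 and 1095 reads and *Heatr6* 689 and 449, and neither was called.

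Fold changes in these libraries fell with transcript length over all tested genes, and most members are short. The longest GENCODE transcripts of the 6 tested members had 523 to 2230 bases, against a median of 3318 over the tested genes. With the loess curve of log2 fold change on length taken off, *Xcl1* was at 1.69 and stayed called (adjusted p = 0.00198, exact binomial test). *Ccl3* was at 0.80 (adjusted p = 0.00229, exact binomial test) and was no longer 2-fold. *Ccl5* and *Ccl4* were at 0.65 and 0.29, and neither passed the exact binomial test (adjusted p = 0.133 and 0.123). *Ccl20* stayed called, with an adjusted p of 0.000725 from the exact binomial test. What the length trend comes from was not tested.

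**Figure D4:**
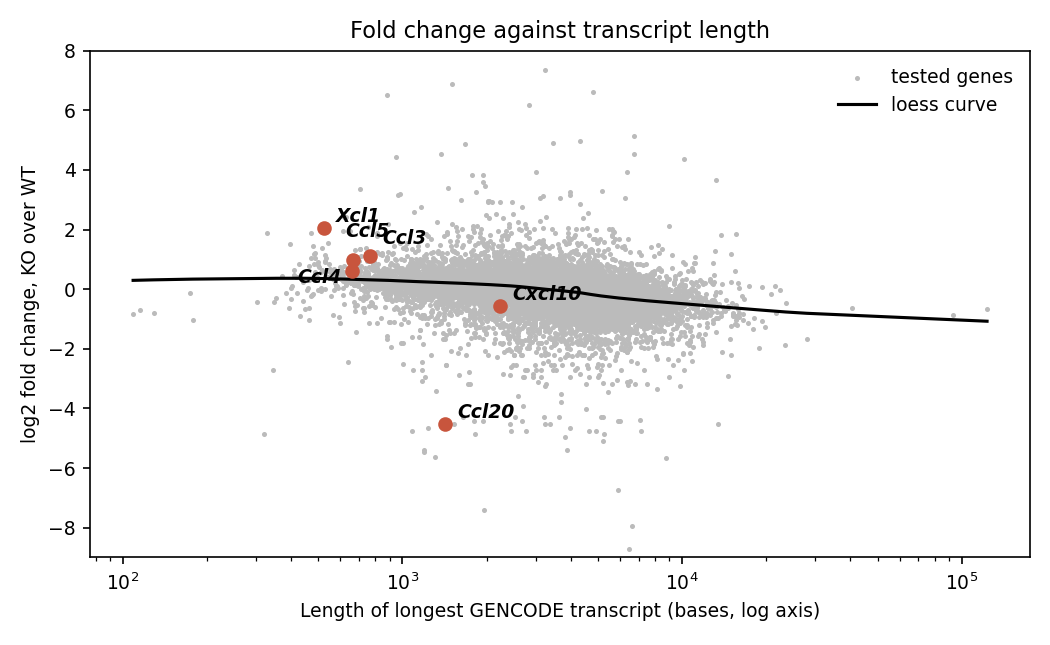
Log2 fold change (KO over WT) of each tested gene against the length of its longest GENCODE transcript (log axis), with the loess curve and the 6 tested ligands as large points. *Xcl1*, *Ccl3*, *Ccl5* and *Ccl4*, all at the short end, lie above the curve by 1.69, 0.80, 0.65 and 0.29, and the height of *Ccl20*, with 0 KO reads, depends on the 0.5 added to each count.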

How the data were processed

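RNA-seq of 1 WT and 1 KO library of Th17 cells was used, while 6 ChIP and input samples were not analysed here. The authors deposited raw counts of reads per gene, without normalization, for each library. The study's methods name SOAP2 and the mm10 genome for mapping, while the submitters' processing notes name Bowtie and HTSeq without a role. Settings of the counting step, its use of strand and what became of multi-mapping reads are not given in the sources used here. A gene listed in 1 table was given 0 reads in the other.

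Log2 fold changes used counts with 0.5 added, divided by the library total. A gene needed 10 reads in the libraries together, which left 10881 for a two-sided exact binomial test with Benjamini-Hochberg adjustment (SciPy 1.17.1). Calls required a 2-fold change and an adjusted p below 0.05. A quasi-likelihood fit in edgeR could not be made, since 1 library per genotype leaves no residual degrees of freedom. Intervals of fold changes and shares are exact (Clopper-Pearson) and those of levels exact Poisson, at 95%. The calculations were tested on simulated data.

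Annotated symbols were found for 13050 of the 13704 listed genes, older symbols for 602, and 52 matched nothing. Lengths came from GENCODE M21 (found for 99.2% of tested genes), positions and promoters from RefSeq.

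The members and gene lists were chosen with earlier results of these data known. Named genes were all members, their receptors, other ligands with at least 10 reads, called genes of the activation, regulator and interferon lists and of the neighbours within 250 kb, and *Tbx21*, *Klf13*, *Rel*, *Il2*, *Tnf* and *Ifng*. Some genes that this rule takes in are not reported here. *Taf15*, *Heatr6*, *Cd79b* and the CD8 T and NK cell markers were named after their values were seen. Alternatives were TMM and an assumed coefficient of variation of 0.2 or 0.4 (edgeR 4.0.16), DESeq2 1.42.0 size factors, upper-quartile scaling, 5 added to each count, other filters and thresholds, and loess curves on length or GC content (statsmodels 0.14.6, span 0.3), run with R 4.3.3 and Python 3.11.15.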

Additional observations from a re-analysis of the deposited data

How the results depend on the processing

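No paired analysis was possible because there was 1 library per genotype and the labels give no replicate numbers, and no library could be left out. The calls of the members rest on counting error alone. Where cultures were assumed to vary with a coefficient of 0.2, 0 members were called lower and 0 higher (131 and 65 over all genes; adjusted p from edgeR's exact test 0.0705 for *Ccl20*, 0.0977 for *Xcl1* and 0.378 for *Ccl3*), and with 0.4 also 0 and 0 (9 and 7 over all genes). Requiring 10 reads in each library left 0 lower and 1 higher (389 and 184 over all genes), since *Ccl20* and *Xcl1* were then not tested. An adjusted p under 0.001 left 0 lower (370 over all genes). The length correction left 1 higher (266 over all genes), and a fold of 1.5 gave 4 higher (764 over all genes).

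TMM, upper-quartile and DESeq2 scaling, 5 added to each count, 1 read as the minimum and the GC correction left the 1 lower and 2 higher calls as they were. Of 70 values computed for the 6 tested members under the alternatives, 60 kept their direction and side of the threshold, 8 lost the call and 2 gained one. Settings that change only the test or a threshold leave the direction as it was. Members without a call could not lose one, and a member that a setting left untested gave no value. For 24 other genes that the naming rule takes in, the counts were 242 of 282 kept, 33 lost, 5 gained and 2 reversed, both under the length correction, where *Tnf* was at -0.043 and *Klf13* at 0.28. The cause was not tested. Per kilobase, the share of ligand reads was 59.4% for *Ccl4*, 0.680% for *Ccl22* and 3.27% for *Cxcl10* in WT, and 1.25% for *Cxcl10* in KO. RefSeq lengths were an alternative chosen after seeing the data.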
